A study of Homo sapiens with 8 samples.

Results

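DSC2 encodes desmocollin 2, an adhesive cadherin of the desmosome. It was examined here with 8 further desmosome genes in 2 human lung cancer lines after knockdown of PTK7. The 9 genes were DSC2, DSC3, DSG2, DSG3, DSP, JUP, PKP1, PKP2 and PKP3, taken by their symbol in the array annotation out of 18404 genes measured, and each had 1 probe set. DSC2 was chosen by its PTK7 minus control difference in these same arrays, so that difference is described and not tested. The other 8 genes were listed as known desmosome components. The groups were H1299 cells with PTK7 hairpins, H1299 cells with control hairpins, H2009 cells with PTK7 hairpins and H2009 cells with control hairpins, with 2 arrays each. The full names of the lines are NCI-H1299 and NCI-H2009. In every group the cells carried a lentiviral short hairpin RNA and had been through puromycin, with 2 days of infection, 2 days of selection and RNA collection at day 4. The hairpins were PTK7-1 and PTK7-2 against PTK7, and GFP and LUC (luciferase) as controls, each on 1 array per line. Separate cultures of the same hairpin and line are not described in the labels, so every p-value reflects only how far these arrays spread, which may be technical.

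Desmosomes are spot junctions that tie the intermediate filaments of neighbouring epithelial cells together. Their cadherins, the desmocollins and desmogleins, bind across the gap between cells; the armadillo proteins plakoglobin (JUP) and the plakophilins (PKP1, PKP2 and PKP3) bind the cadherin tails; and desmoplakin (DSP) links this plaque to keratin filaments. DSC2, DSG2, PKP2, JUP and DSP are the components known from simple epithelia, while DSC3, DSG3 and PKP1 are best known from stratified epithelia. PTK7 encodes a receptor-like pseudokinase of Wnt and planar cell polarity signalling.

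All values are RMA log2 values per probe set, on which a difference of 1 is a doubling, and errors are standard errors of the limma fit unless marked SD. The threshold was a Benjamini-Hochberg adjusted p of 0.05 over all 18404 genes. Values of within-group array pairs correlated at r of 0.981 to 0.997 across genes, and PTK7 itself was lower on each PTK7 array than on both control arrays of its line. It averaged 5.58 ± 0.07 under PTK7 hairpins and 5.88 ± 0.21 under control hairpins in H1299 (SD, n = 2 each). In H2009 it averaged 5.79 ± 0.22 under PTK7 hairpins and 6.75 ± 0.15 under control hairpins (SD, n = 2 each). Of the epithelial markers, EPCAM lay between 3.32 and 3.58 and CDH1 between 3.92 and 4.19 on the H1299 arrays, against 11.17 to 11.30 and 11.17 to 11.43 on the H2009 arrays, so the defining epithelial surface genes were at the dim end in H1299. The keratin gene KRT18 was bright in both lines, at 10.56 to 11.61 in H1299 and 11.26 to 11.42 in H2009. The 5 measured epithelial markers had list means of 6.55 to 6.78 (PTK7) and 6.25 to 6.76 (control) in H1299, and of 11.28 to 11.42 (PTK7) and 11.27 to 11.28 (control) in H2009. Leukocyte and endothelium markers were dim, with list means over all groups of 3.40 to 3.59 and 3.64 to 4.04; those of fibroblasts had 3.96 to 4.23, in which COL1A1 reached 6.93. The 2 squamous markers had list means of 5.17 to 5.69. The part of these markers in the results below was not tested. DSC3, DSG3 and PKP1 never exceeded 4.39, 3.69 and 4.58, where the 25th percentile of all genes lay between 4.26 and 4.44 on the 8 arrays. RMA compresses differences at that end of the scale, and detection calls were not used here.

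Most desmosome genes had lower values in H1299 than in H2009 before any PTK7 comparison. Under control hairpins 6 of the 9 genes were lower in H1299 than in H2009 at the threshold, namely JUP, PKP3, DSC2, DSP, DSC3 and PKP1, and 0 were higher. In the same comparison 12.3% of all genes were called lower in H1299 and 12.5% higher. The median difference was -1.10 over the 9 genes and 0.06 over all genes. All 4 H1299 arrays lay below all 4 H2009 arrays for 7 of the 9 genes, which was the case for 16.2% of all genes. The exceptions were DSC2, described below, and DSG3. Among the 7, PKP1 was barely apart, with 4.11 on the highest H1299 array and 4.13 on the lowest H2009 array. For DSC3 these were 3.30 and 3.46. Both genes are also among the 6 called and rest on the dim probe sets described above.

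JUP, the armadillo protein that binds desmosomal and classical cadherins alike, had the widest gap of the 9. Its values under control hairpins were 6.55 (GFP) and 5.86 (LUC) in H1299, against 10.62 (GFP) and 10.49 (LUC) in H2009. The difference was -4.35 ± 0.31 on the log2 scale, 20.4-fold lower in H1299 (limma adjusted p = 1.10e-04). PKP3, a plakophilin, had 5.64 and 5.88 in H1299, against 7.99 and 7.53 in H2009, a difference of -1.998 ± 0.26 (adjusted p = 0.00187). DSC2 had 7.42 and 7.72 in H1299, against 9.22 and 9.19 in H2009, and was 3.12-fold lower in H1299 at -1.64 ± 0.16 (adjusted p = 4.31e-04). This line comparison is not the one DSC2 was chosen on. DSP, the plaque protein that anchors keratins, had 8.11 and 7.82 in H1299, against 9.13 and 9.13 in H2009, a difference of -1.17 ± 0.19 (adjusted p = 0.00491). For each of these 4 genes the gap between the lines exceeded the spread within either control pair.

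The remaining 5 genes differed less or were less certain. DSC3 had 3.12 and 3.11 in H1299, against 4.39 and 4.04 in H2009 (difference -1.10 ± 0.21, adjusted p = 0.00806), and this call was lost without the GFP array of H2009 (-0.92, adjusted p = 0.0679). PKP1 was just past the threshold at -0.50 ± 0.15 (adjusted p = 0.0479). It did not pass without any 1 of the 4 control arrays (adjusted p from 0.144 to 0.214) or with median centring (0.063). PKP2, a plakophilin of simple epithelia and heart, had 9.08 and 7.59 in H1299, against 9.67 and 9.21 in H2009. Its difference of -1.10 ± 0.43 did not pass (adjusted p = 0.117) and turned on the H1299 controls, being -1.85 without the GFP array, where it passed (adjusted p = 0.00561), and -0.36 without the LUC array. DSG2, the desmoglein found wherever desmosomes are, had 9.33 and 9.35 in H1299, against 9.80 and 9.74 in H2009, a difference of -0.43 ± 0.16 that did not pass (adjusted p = 0.0971, 95% interval -0.80 to -0.05). DSG3 had 3.65 and 3.55 in H1299 and 3.67 and 3.44 in H2009, with a difference of 0.05 ± 0.13 (95% interval -0.27 to 0.36).

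**Figure D1:**
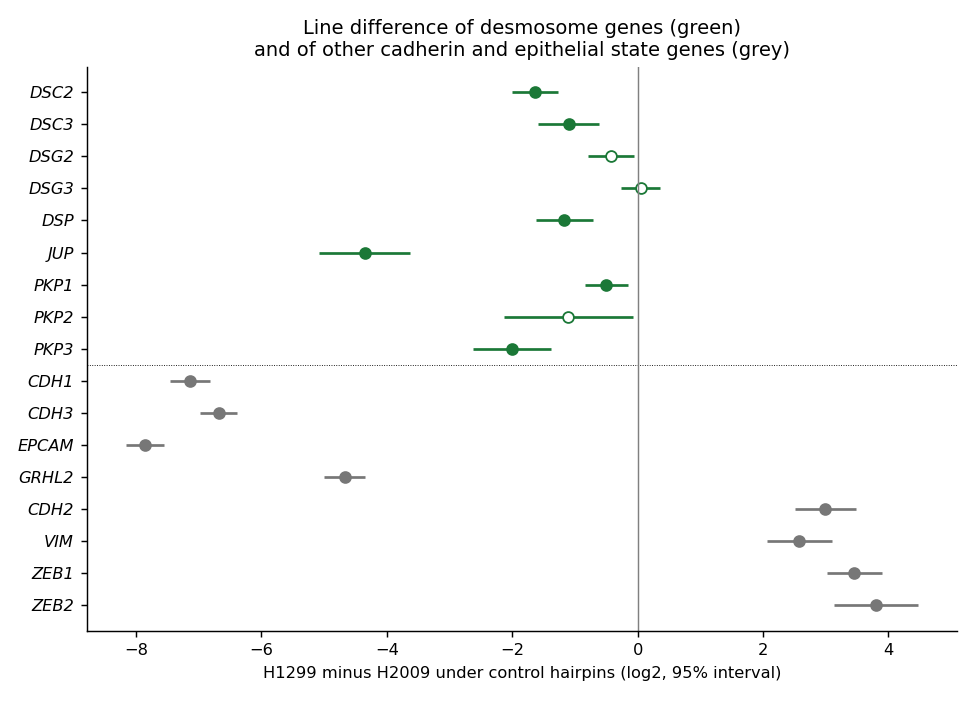
H1299 minus H2009 difference under control hairpins on the log2 scale (horizontal axis, points) with 95% intervals of the limma fit (lines), for the 9 desmosome genes in green and for 8 other genes in grey. Filled points passed the threshold and open ones did not; 8 of the 9 desmosome points lie left of 0, JUP farthest at -4.35, while the adhesion genes CDH1 and CDH3 lie at -7.14 and -6.68 and the transcription factor genes ZEB1 and ZEB2 at 3.46 and 3.80.

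Since several of these genes were lower together in H1299, their promoters are shown with the E-box letters CAGGTG, read as CACCTG when on the opposite strand, to which the ZEB and SNAI repressors are known to bind. In RefSeq's GRCh38.p14 promoter table, 7 of the 9 genes matched (all but PKP2 and PKP3), with 9 start sites, and the 250 bases before each start were searched on both strands. The E-box letters were present in 4 of these 9 windows, 1 each of DSC2, DSG2, DSP and JUP, and in 17.5% of the 35116 promoters of the table. The AP-1 letters TGANTCA and the grainyhead-like letters AACCGGTT were in 0 of the 9 windows, against 6.57% and 0.117% of all promoters. These motifs were picked after the values were known, and a match is a description of the letters only. Whether the E-box letters bear on the line difference was not tested. The windows of DSC3 and PKP1, also called lower in H1299, lack them, and PKP3 was not matched. DSG2 holds them and was not called, and DSG3 lacks them and was not called. The windows of the 3 genes called lower in H1299 that hold the E-box are given 5′ to 3′, with the E-box in capitals. DSC2 and JUP have another start in the table whose window lacks these letters. The E-box begins 156 bases before the DSC2 start, 178 and 85 before that of DSP, and 54 and 43 before that of JUP.
DSC2 (chr18:31102422-31102671, minus strand): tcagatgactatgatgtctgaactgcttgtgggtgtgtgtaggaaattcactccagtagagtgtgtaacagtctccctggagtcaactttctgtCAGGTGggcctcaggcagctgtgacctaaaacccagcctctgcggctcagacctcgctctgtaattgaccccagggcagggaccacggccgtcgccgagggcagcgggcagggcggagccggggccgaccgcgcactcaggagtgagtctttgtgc
DSP (chr6:7541421-7541670, plus strand): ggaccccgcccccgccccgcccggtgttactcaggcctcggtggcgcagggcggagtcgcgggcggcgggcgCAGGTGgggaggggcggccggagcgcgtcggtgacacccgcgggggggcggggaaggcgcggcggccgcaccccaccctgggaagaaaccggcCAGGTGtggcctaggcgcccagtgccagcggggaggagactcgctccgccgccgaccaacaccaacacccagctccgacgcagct
JUP (chr17:41785977-41786226, minus strand): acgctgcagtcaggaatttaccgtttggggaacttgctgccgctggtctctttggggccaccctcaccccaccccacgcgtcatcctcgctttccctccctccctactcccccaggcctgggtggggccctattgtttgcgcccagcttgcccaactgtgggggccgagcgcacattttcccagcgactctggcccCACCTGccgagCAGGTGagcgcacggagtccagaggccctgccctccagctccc

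The same line comparison is given for lists of related genes, to be read against the 12.3% of all genes called lower and 12.5% called higher in H1299. The counts of the adherens junction, other desmosome and hemidesmosome lists are near the sum of those shares. Among adherens junction genes, 2 of 11 measured were lower in H1299, 1 was higher and 8 were not called. CDH1 (E-cadherin) was lower at -7.14 ± 0.13 and CDH3 (P-cadherin) at -6.68 ± 0.13, while CDH2 (N-cadherin), which neighbours the desmosomal cadherins on chromosome 18, was higher at 2.995 ± 0.21 (adjusted p of at most 1.01e-04 for the 3 genes). Of 8 measured intermediate filament genes, 3 were lower, 1 higher and 4 not called. The keratin genes KRT19 and KRT7 stood at -5.97 ± 0.15 and -5.41 ± 0.20, KRT8 at -2.24 ± 0.41, and VIM (vimentin), the filament of mesenchymal cells, at 2.58 ± 0.22. KRT8 did not pass without the LUC array of H2009 (adjusted p = 0.0536). Of 8 other desmosome and cornified envelope genes, the plakins PPL and EVPL were lower, at -2.37 ± 0.25 and -1.62 ± 0.26, and DSC1, DSG1, DSG4, PERP, CDSN and KAZN were not called. Hemidesmosome genes, which serve the contact with the basement membrane, had 1 of 6 lower (ITGB4, -3.90 ± 0.34), 1 higher (CD151, 0.72 ± 0.14) and 4 not called. CD151 did not pass without the GFP array of H1299 or the LUC array of H2009.

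Transcription factors known to act on epithelial junction genes nearly all differed between the lines. Of 11 measured, 7 were lower in H1299, 3 higher and 1 not called. The count was 7 to 10 over the alternative settings. Those higher were ZEB1 at 3.46 ± 0.19, ZEB2 at 3.80 ± 0.29 and TWIST1 at 0.55 ± 0.14. The ZEB2 value is that of its brightest probe set. With the mean of its probe sets the ZEB2 difference was smaller, at 2.01, and still passed (limma adjusted p = 2.78e-04). GRHL2, an activator of epithelial junction genes, was lower at -4.67 ± 0.14, as were OVOL1 (-2.03 ± 0.17), GRHL1 (-1.82 ± 0.21), KLF5 (-1.10 ± 0.13) and OVOL2 (-0.76 ± 0.13). SNAI2, a repressor of the same family as SNAI1, was also lower in H1299, at -5.39 ± 0.45, as was SNAI1 at -1.02 ± 0.24, which is the opposite direction to the ZEB genes. Median differences were 0.23 for adherens junction, -0.24 for intermediate filament, -0.04 for other desmosome and cornified envelope, -0.26 for hemidesmosome and -1.02 for transcription factor genes, beside 0.06 for all genes. Of the marker lists, the epithelial one had 4 of 5 lower, the fibroblast one 1 of 5 lower (COL1A1), and the squamous, leukocyte and endothelium ones 0 called of 2, 4 and 4.

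DSC2 was lower under both PTK7 hairpins than under the control hairpins in both lines. In H1299 DSC2 had 6.32 (PTK7-1) and 6.08 (PTK7-2) under PTK7 hairpins, against 7.42 (GFP) and 7.72 (LUC) under control hairpins. In H2009 it had 7.85 (PTK7-1) and 7.66 (PTK7-2), against 9.22 (GFP) and 9.19 (LUC). Every PTK7 array thus lay more than 1 unit below both control arrays of its line. Because of this, H2009 cells with PTK7 hairpins, at 7.76 ± 0.14, had about the DSC2 value of H1299 cells with control hairpins, at 7.57 ± 0.21 (SD, n = 2 each), and the ranges of the 2 lines met there.

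The group difference was -1.37 ± 0.16 in H1299, -1.45 ± 0.16 in H2009 and -1.41 ± 0.11 averaged over the lines. The averaged error takes the arrays of the same hairpin in the 2 lines as independent, so it may be too small. The H1299 and H2009 values leave 38.7% and 36.5% of the control signal. Taken hairpin by hairpin against the control mean, PTK7-1 stood at -1.25 in H1299 and -1.35 in H2009, and PTK7-2 at -1.49 and -1.55. The difference between the lines was 0.08 ± 0.22 (limma adjusted p = 0.980, 95% interval -0.44 to 0.60). PTK7-1 minus PTK7-2 was 0.22 ± 0.14 (adjusted p = 0.506, 95% interval -0.11 to 0.54). DSC2 was named for its change in both lines, which favours a like difference in each, so these 2 values are no independent support. Beside it, the PTK7 value itself differed by -0.30 ± 0.17 in H1299 (95% interval -0.70 to 0.09, limma adjusted p = 0.804) and by -0.96 ± 0.17 in H2009 (95% interval -1.36 to -0.57, adjusted p = 0.222). Neither passed the threshold, and the H1299 decrease was small, with PTK7-1 at 5.63 against 5.73 for GFP, so the DSC2 values in H1299 stand beside a weak measured decrease of PTK7. Both PTK7 arrays lay below both control arrays in each line for 1 of the 9 genes, DSC2, which its choice on this difference accounts for, and for 4.53% of all genes; nothing is read from that count.

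**Figure D2:**
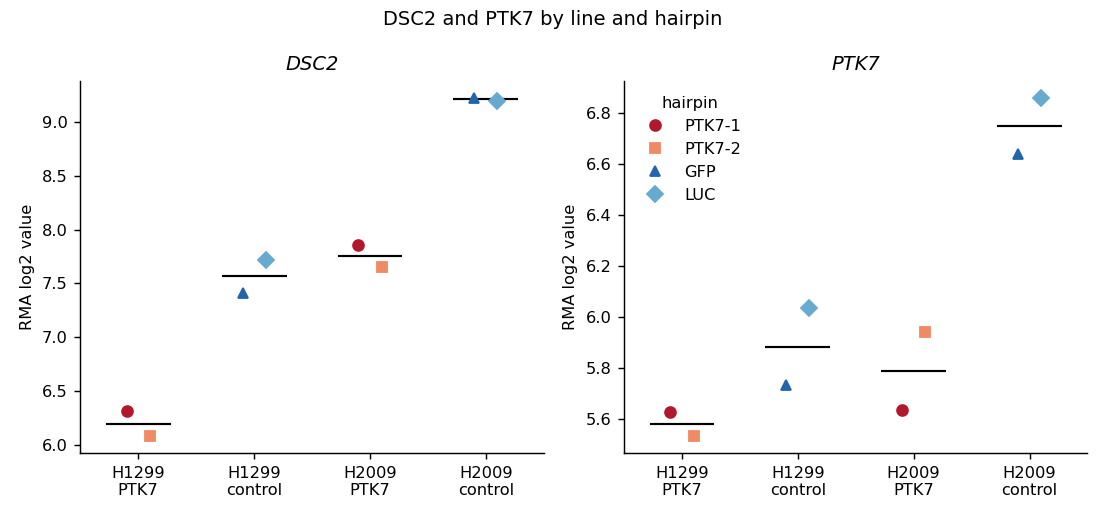
RMA log2 values (vertical axes) of DSC2 on the left and PTK7 on the right for the 4 groups (horizontal axis); symbols mark the hairpin of each array and bars the mean of 2 arrays. DSC2 lies at 6.08 and 6.32 under PTK7 hairpins in H1299, and at 7.66 and 7.85 in H2009, where its control arrays lie at 9.19 and 9.22.

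None of the other 8 desmosome genes passed the threshold after PTK7 knockdown. The count was 0 of 8 averaged over the lines, 0 in H1299 and 0 in H2009; the share of all genes called was 0% for the average, 0.00543% in H1299 and 0% in H2009, so these tests called almost nothing anywhere. At an unadjusted p under 0.05 there were 0 of the 8 in the averaged contrast, 0 in H1299 and 1 in H2009 (DSC3), and 1819 of all genes in the averaged contrast, 1376 in H1299 and 1468 in H2009. A fit that took each hairpin as a replicate block called 149 genes in the averaged contrast, and 0 of the 8 were among them. The error of that fit leaves out the spread between hairpins of the same kind, so its p-values and calls do not measure that spread. Of the 8 averaged differences 3 were below 0 and 5 above, from -0.26 (DSP) to 0.38 (PKP2), with a median of 0.02, beside 0.02 for all genes. The difference between the lines was called for 0 of the 8 genes (lowest limma adjusted p = 0.922) and for 0% of all genes. At an unadjusted p under 0.05 these were 0 of the 8 and 951 of all genes, and the replicate block called 0 of the 8.

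Among the cadherins, DSG2, the usual desmoglein partner of DSC2 in simple epithelia, had 9.39 and 9.08 under PTK7 hairpins in H1299, against 9.33 and 9.35 under control hairpins. In H2009 it had 10.16 and 9.86, against 9.80 and 9.74. The averaged difference was 0.07 ± 0.11 with a 95% interval of -0.19 to 0.33, and in H2009 both PTK7 arrays lay above both control arrays. DSC3, the next desmocollin gene on the chromosome, had 3.30 and 3.004 in H1299 under PTK7 hairpins, against 3.12 and 3.11 under control hairpins. In H2009 it had 3.46 and 3.94, against 4.39 and 4.04, with both PTK7 arrays below both control arrays in that line. Its H2009 difference of -0.52 ± 0.21 did not pass (adjusted p = 0.608), and it rests on a dim probe set. DSG3 stayed between 3.53 and 3.69 under PTK7 hairpins and between 3.44 and 3.67 under control hairpins over both lines, with an averaged difference of 0.01 ± 0.09.

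In the plaque, JUP had 6.19 (PTK7-1) and 6.90 (PTK7-2) in H1299, against 6.55 (GFP) and 5.86 (LUC). In H2009 it had 10.33 and 10.76, against 10.62 and 10.49. The groups overlapped in both lines, and the averaged difference was 0.16 ± 0.22 (95% interval -0.35 to 0.68). DSP had 7.89 and 7.52 in H1299, against 8.11 and 7.82, and 9.05 and 8.66 in H2009, against 9.13 and 9.13. In H2009 both PTK7 arrays were the lower pair, while in H1299 the groups overlapped. It was the gene of the 8 with the lowest averaged difference, at -0.26 ± 0.14 (adjusted p = 0.596, or 0.262 with the replicate block).

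Of the plakophilins, PKP2 had 8.84 and 8.62 in H1299, against 9.08 and 7.59, and 9.74 and 9.90 in H2009, against 9.67 and 9.21. Its difference was 0.39 ± 0.43 in H1299 and 0.38 ± 0.43 in H2009, and 0.38 ± 0.31 averaged. In H1299 both PTK7 arrays lay between the GFP and LUC arrays, so the H1299 part turned on which control array was used. The average was 0.01 without the LUC array of H1299. In that array the keratin genes KRT8 and KRT18 were also low, at 8.68 and 10.56, against 9.96 and 11.36 in the GFP array; their part in the PKP2 value was not tested. PKP3 had 5.78 and 6.03 in H1299, against 5.64 and 5.88, and 7.30 and 8.01 in H2009, against 7.99 and 7.53, with an averaged difference of 0.02 ± 0.19. PKP1 had 4.11 and 3.94 in H1299, against 4.05 and 4.09, and 4.13 and 4.48 in H2009, against 4.55 and 4.58, with an averaged difference of -0.16 ± 0.10. PKP2 was higher on both PTK7 arrays than on both control arrays in H2009, PKP1 was lower on both there, and the other line overlapped in each case. PKP3 overlapped in both lines.

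**Figure D3:**
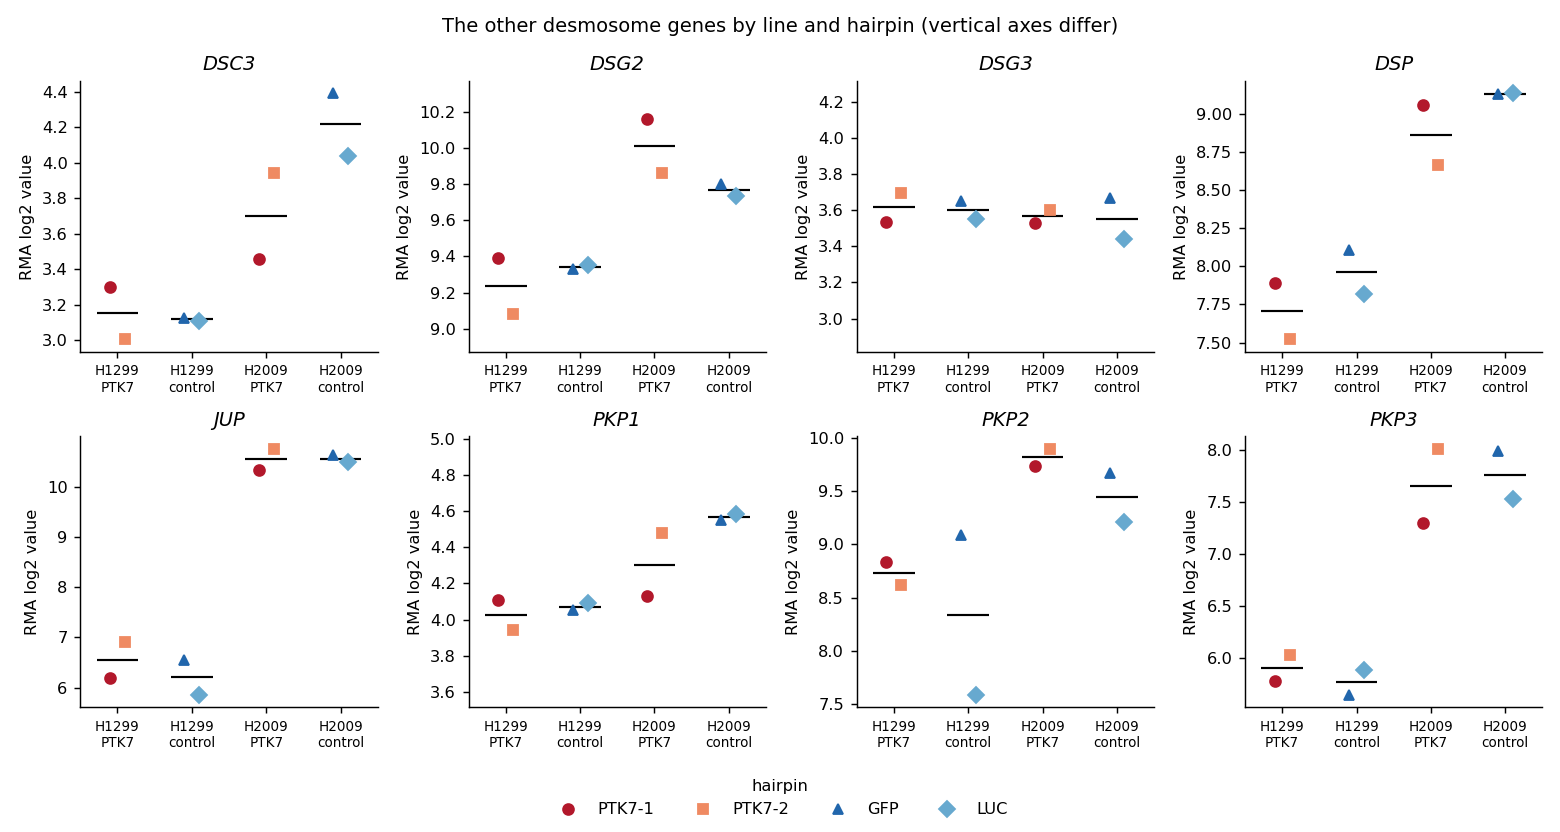
RMA log2 values (vertical axes, which differ between panels) of the 8 other desmosome genes in the 4 groups (horizontal axes); symbols mark the hairpin of each array and bars the mean of 2 arrays. JUP lies between 5.86 and 6.90 in H1299 and between 10.33 and 10.76 in H2009, and none of the 8 genes has its PTK7 arrays on one side of its control arrays in both lines.

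None of the 9 genes passed the test between the 2 PTK7 hairpins, and their differences are given as values. PTK7-1 minus PTK7-2 was 0.31 in H1299 and 0.30 in H2009 for DSG2, and 0.37 and 0.39 for DSP. It was -0.72 and -0.42 for JUP and -0.25 and -0.71 for PKP3. Against its control mean, DSP stood at -0.07 in both lines with PTK7-1, and at -0.44 in H1299 and -0.46 in H2009 with PTK7-2. In the direct test 0 of the 9 genes passed (lowest adjusted p = 0.161, for JUP), and 3.73% of all genes were called. At an unadjusted p under 0.05 there were 3 of the 9 (JUP, DSP and PKP3) and 3364 of the 18404 genes. Between the GFP and LUC hairpins 0 of the 9 passed and 0% of all genes were called; 1 of the 9, PKP2 at 0.98 ± 0.24, and 672 of all genes had an unadjusted p under 0.05.

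In the wider lists the same test called 1 of 8 other desmosome and cornified envelope genes (PERP), 1 of 11 adherens junction genes (CTNNA1), and 0 of 8 intermediate filament, 0 of 6 hemidesmosome and 0 of 11 transcription factor genes, which together is near the 3.73% of all genes. PERP, a membrane protein that desmosomes of stratified epithelia need, had 9.33 (PTK7-1) and 7.80 (PTK7-2) in H1299, against 9.30 (GFP) and 9.26 (LUC). In H2009 it had 9.90 and 8.87, against 9.64 and 9.62. CTNNA1 (alpha-catenin), which couples adherens junctions to actin, had 9.22 and 8.20 in H1299, against 9.63 and 9.21, and 9.63 and 8.58 in H2009, against 9.97 and 9.80. In both genes the PTK7-2 array was the lowest of each line. PTK7-1 minus PTK7-2 was 1.28 ± 0.19 for PERP (adjusted p = 0.0171) and 1.03 ± 0.13 for CTNNA1 (adjusted p = 0.0115). Both calls were lost without either H1299 PTK7 array or without the PTK7-1 array of H2009, with adjusted p between 0.0548 and 0.133. Their averaged PTK7 minus control differences, -0.48 ± 0.35 and -0.75 ± 0.30, did not pass (adjusted p = 0.715 and 0.467).

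**Figure D4:**
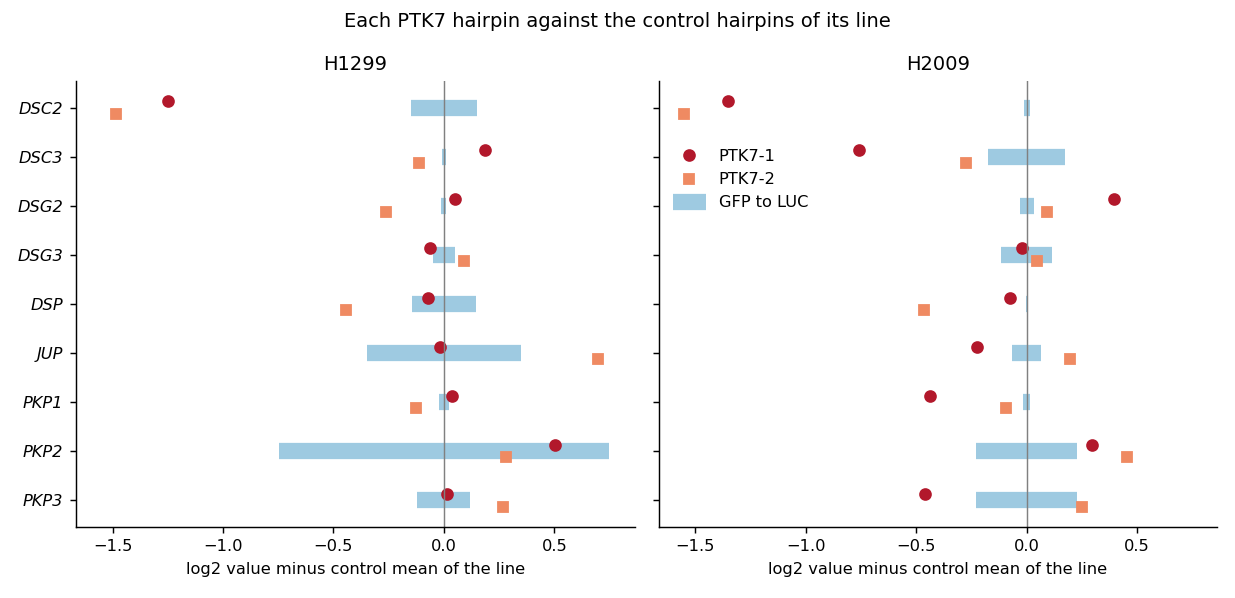
Log2 value of each PTK7 array minus the control mean of its line (horizontal axes) for the 9 genes (vertical axis), in H1299 on the left and H2009 on the right; blue bars run between the GFP and LUC arrays. DSC2 lies between -1.25 and -1.55 with either hairpin, and the other 8 genes lie between -0.76 (DSC3, PTK7-1, H2009) and 0.70 (JUP, PTK7-2, H1299).

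Beyond the 9 genes, no member of the junction lists passed in the averaged contrast. The called counts were 0 of 8 for other desmosome and cornified envelope, 0 of 8 for intermediate filament, 0 of 11 for adherens junction, 0 of 6 for hemidesmosome and 0 of 11 for transcription factor genes, with median differences of 0.02, 0.08, 0.06, 0.07 and 0.01, beside 0.02 for all genes. The 3 members of these lists nearest to the threshold are given as values only. LAMB3, a laminin chain of the basement membrane, stood at 0.86 ± 0.18, CDH2 at 0.59 ± 0.15 and GRHL1 at -0.39 ± 0.15. CDH2 had 9.41 and 9.51 in H1299 under PTK7 hairpins, against 9.22 and 9.08 under control hairpins, and 6.99 and 7.04 in H2009, against 6.48 and 5.83. GRHL1 had 4.81 and 5.03 in H1299, against 4.65 and 5.13, where the groups overlapped, and 5.86 and 5.91 in H2009, against 6.50 and 6.91. The marker lists for epithelial, squamous, fibroblast, leukocyte and endothelial cells had 0 called members, and their medians lay between 0.03 and 0.13.

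DSC2 lies on chromosome 18 between DSC3 and DSC1, in a row with the desmoglein genes. Of its 12 nearest measured neighbours, 6 on either side, 0 were called in the averaged contrast. Their differences ran from -0.24 (DSC3) to 0.59 (CDH2) with a median of 0.0038, and DSC1, DSG1 and DSG4 stood at -0.04, 0.0005 and 0.0072. The genes whose deviations from the line mean followed DSC2 most closely over the 8 arrays, among 6961 genes with an SD of these deviations of at least 0.2, were COIL (r = 0.991), METTL24 (0.986), PIK3CB (0.982), MBOAT1 (0.979) and INTS9 (0.978). The most opposed were ABHD2 (-0.981), TMEM43 (-0.980) and BATF2 (-0.963). These points share the 4 hairpins and 2 lines, so the correlations mostly repeat the PTK7 and control grouping. METTL24 stood at -0.46 in H1299 and -0.55 in H2009, and TMEM43 at 0.49 and 0.46. Within the desmosome the r with DSC2 ran from -0.51 (PKP2) to 0.68 (DSP).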

How the data were processed

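Total RNA of 2 cell lines was measured on 8 single-label Affymetrix arrays. The authors made the deposited log2 values with R 2.14.0 and RMA, as listed per the submitters' processing notes; probe set medians lay between 5.31 and 5.41, and the number of arrays limits the precision. Of 32321 probe sets, 19158 carried a single gene symbol, 1388 several, and 11775 had none in the annotation used. The brightest probe set per gene was kept. The model was fitted in limma 3.58.1 (R 4.3.3) as a mean per line and knockdown, or as hairpin plus line for tests between hairpins, with Benjamini-Hochberg adjustment over all 18404 genes. As each hairpin was used in both lines, the hairpin also served as a replicate block in a second fit. That fit gives each hairpin its own mean, so its error is only how hairpins varied between the lines. The spread between the 2 PTK7 hairpins or the 2 control hairpins is not part of its p-values. Hairpin differences correlated between the lines over genes at 0.230 (control) and 0.407 (PTK7). The first fit takes the 2 arrays of a hairpin as independent. Its errors and intervals for differences averaged over the lines may therefore be too narrow. The fits were tested on simulated data.

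The members, lists and named genes were chosen with earlier results of these data known. All 9 members are named, with up to 3 members per list by p where none passed, and genes most like DSC2 by Pearson r. The alternatives tried were other scalings (quantile, median), a filter on the dimmest 40% of genes, other probe set rules, other priors, an additive fit, single-line fits and leaving out each array. Some genes of the lists, among them KRT6A, KRT17, CTNND1, COL17A1, LAMA3, TP63 and ESRP1, were not analysed here. Promoters come from RefSeq, GRCh38.p14. Figures used matplotlib 3.10.9 in Python 3.11.15.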

Additional observations from a re-analysis of the deposited data

How the results depend on the processing

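With the hairpin as a replicate block, 0 of the 8 desmosome genes other than DSC2 passed in the averaged contrast and in each line, and the block changed no call of these genes. The same 0 held under each other normalization, prior, probe set rule, additive or single-line fit and with each array left out; with the dimmest 40% of genes removed it is 0 of 5, since DSC3, DSG3 and PKP1 are not tested. The main averaged fit called 0 of all 18404 genes, and other probe set rules cannot move genes with 1 probe set. A 0 among these 8 was therefore likely in any case and is no sign that they were unchanged. The averaged DSC2 difference ran from -1.49 to -1.34 with arrays left out, was -1.37 with quantile normalization and -1.40 with median centring. The count of desmosome genes lower in H1299 was 6 in the fit reported, 5 with median centring, 4 without the dimmest 40% of genes, and 4 to 6 with an array left out. In that comparison, other priors, probe set rules, the dimness filter and leaving out PTK7 arrays could not move the differences of these genes. Only the scalings and leaving out a control array did. JUP, PKP3, DSC2, DSP and DSC3 passed under both scalings, and PKP2 and DSG2 under neither. PKP1 passed with quantile normalization (limma adjusted p = 0.0214) and not with median centring (0.063). Over all alternatives the difference ran from -4.70 to -4.00 for JUP and from -1.31 to -1.02 for DSP. It ran from -0.52 to -0.45 for PKP1 and from -1.85 to -0.36 for PKP2. Hemidesmosome calls fell to 1 without the GFP array of H1299 or the LUC array of H2009. For all genes, the hairpin as a block called 149 in the averaged contrast against 0 without it (up to 5 with an array left out), and 4 against 1 in H1299 (up to 8). The line comparison called 2196 to 5298 with an array left out, against 4566. PTK7-1 against PTK7-2 called 0 to 943 with an array left out, against 686. The alternatives for PERP, CTNNA1 and the wider lists were added after seeing the data. Each group holds 2 arrays with different hairpins, so hairpin and array error cannot be told apart within a group.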
